A study of Komagataella pastoris with 60 samples.

Results

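The genes described here encode proteins of the large ribosomal subunit in the methylotrophic yeast Pichia pastoris (Komagataella pastoris in the labels). They were taken from the study's list of ribosomal protein genes by name. Every gene whose name starts with RPL or RPP was kept, except the paralog genes RPL2A, RPL2B, RPL6A, RPL6B, RPL9A and RPL9B. This gave 43 genes of 5319 host genes in the files, and all 43 passed the filter on low counts. RPL38 was left out of every count in the strain that lacks it, so 42 members were counted there. The names follow homologs in Saccharomyces cerevisiae, and the roles given below are known from that yeast.

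The large subunit joins amino acids into protein and passes the growing chain out through a tunnel. A flexible stalk of acidic proteins recruits the translation factors, a particle of 5S ribosomal RNA and its partner proteins forms the central protuberance, and a ring of proteins surrounds the tunnel exit, where chaperones and targeting factors dock. A last set of proteins joins when the particle has reached the cytoplasm. In budding yeast the genes of this family are among the most strongly expressed, and their transcripts are known to rise and fall together with growth and nutrients.

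The question behind the series was how loss of single ribosomal proteins bears on transcription and translation during production of a foreign protein. The strains rpl38∆ and rpl9a∆ lack a large-subunit gene (RPL38 and RPL9A), rps7∆ and rps25∆ lack a small-subunit gene (RPS7 and RPS25), and wt is the parent with no deletion. All 5 strains derive from P. pastoris GS115 and carry 1 copy of Phy, a bacterial phytase gene driven by the methanol-inducible AOX1 promoter. The deletions were made by homologous recombination, with the resistance marker removed afterwards. Whether the replicates of a strain came from 1 transformant is not given in the sources used here. Cultures grew in methanol medium and were sampled at 24, 48 and 72 h. Each sample was split into mRNA, from total RNA, and RNC-mRNA, from ribosome-nascent chain complexes pelleted through sucrose after cycloheximide, so that RNC-mRNA is the message bound to ribosomes. With 2 biological replicates per group this made 60 libraries, and p-values measure the spread between such pairs only.

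Depth ranged from 2970406 to 15476958 host reads per mRNA library and from 1508702 to 13532265 per RNC-mRNA library. The median member had at least 301.5 reads in every mRNA library and at least 593.5 in every RNC-mRNA library, so counting error was small for most members. RPL39 was the thinnest, with as few as 5 reads in a library. RPL38 itself had 0 to 3 reads in the 6 mRNA libraries of rpl38∆, against at least 22 in every other mRNA library. In RNC-mRNA it had 0 to 10 reads in rpl38∆, against at least 146 elsewhere. The deletion was therefore visible in all 12 libraries of that strain. The 2 RNC-mRNA libraries of rpl9a∆ at 72 h stood apart from each other, with a median difference between them of 1.94 on the log2 scale over the members, as did the RNC-mRNA pair of rpl38∆ at 72 h (1.11), the mRNA pair of rpl9a∆ at 48 h (0.698) and the RNC-mRNA pair of rpl9a∆ at 48 h (0.572). Results that rest on these 4 pairs are given with and without single libraries of them. All libraries of an assay share 1 estimate of the spread. Leaving out either rpl9a∆ library of 72 h in RNC-mRNA, or of 48 h in mRNA, also raised calls in other groups, as given below. The cause of that rise was not tested. The share of all genes called in other groups rose in those fits too. Without rpl9a∆ replicate 1 of 72 h, RNC-mRNA calls at 24 h covered 33.4%, 47.4% and 38.6% of all genes in rpl38∆, rps7∆ and rps25∆. At 48 h in rps25∆ they covered 36.4%. Without rpl9a∆ replicate 1 of 48 h, mRNA calls at 24 h in these strains covered 59.1%, 71.7% and 69.5%. Member counts from fits with a library left out are therefore not comparable with the shares of all genes given for the full fit. Fits of only the libraries compared, which set the spread from few libraries, called other numbers of members, and these are given where they differ by over 1.5 times. Levels below are CPM, read counts scaled to library depth with edgeR's trimmed-mean factors (TMM), and calls are edgeR quasi-likelihood tests with Benjamini-Hochberg adjusted p under 0.05. Values after ± are standard errors for fold changes and SD (n = 2) for levels unless stated.

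In wt the members were among the most abundant messages of the host. The 27 members whose identifier is listed once, for which a level per length can be given, had a median of 818 CPM per kb in mRNA and 2482 CPM per kb in RNC-mRNA over the 3 times. The medians over all genes listed once were 56.8 CPM per kb in mRNA and 38.6 CPM per kb in RNC-mRNA. In mRNA 23 of the 27 were above the 90th percentile of genes, and in RNC-mRNA 26 of the 27 were. RPL19 and RPL16 led in mRNA at 1479 ± 235 and 1465 ± 258 CPM per kb (SD over 6 wt libraries), followed by RPL5 at 1303 ± 244. That SD includes the change over time shared by the genes, and differences between these 3 were not tested. RPL38 stood at 168 ± 35.0 CPM per kb, RPL29 at 133 ± 35.2 and RPL39, which encodes a very short protein of the tunnel wall, at 47.0 ± 15.9. The highest and the lowest member differed 31.4-fold in mRNA and 17.7-fold in RNC-mRNA. In RNC-mRNA RPL19, RPL40 and RPL15 led at 4879.6 ± 738, 4809 ± 892 and 4519.6 ± 1286 CPM per kb. The order in the 2 assays was alike (Spearman rho 0.87 over the 27 genes, which share libraries and lengths, given as a description).

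The other members listed once lay between these ends. RPL15 had 1204 CPM per kb in wt mRNA, RPL3 887, RPL12 818, RPL4 773, RPP0 741, RPL28 702 and RPL36 584. RPL10, RPL40 and RPL24, which join late, had 1182, 1175 and 1143 CPM per kb, so this class held both abundant members and the scarce RPL29. RPL1, RPL20, RPL14, RPL32 and RPL21 had 1098, 1062, 959, 937 and 925 CPM per kb. RPL26, RPL34 and RPL31 had 628, 569 and 539. The acidic stalk genes RPP1B and RPP1A had 529 and 423, and RPL22 had 214, all 3 below the median member.

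For the other 16 members the files repeat the identifier in the gene's entry, with listed lengths as short as 1 bp, so their levels are in CPM and are not set against other genes. At 24 h in wt mRNA RPL13, RPL11 and RPL18 had 829 ± 81.7, 665 ± 68.0 and 621 ± 31.6 CPM. RPL7, RPL25, RPL17, RPL23 and RPL35 had 492 ± 8.39, 407 ± 71.2, 376 ± 5.71, 356 ± 60.8 and 318 ± 28.9 CPM, RPL42 had 253 ± 25.5, and RPL8B had 591 ± 52.7. RPL30, RPL33, RPL43, RPL8A, RPP2 and RPL37 are given with their libraries below. Multiple listing made up a larger share of the members (37.2%) than of all host genes (8.48%). In 3 pairs of members the identifiers are consecutive (RPL24 and RPL30, RPP1A and RPL13, RPL8A and RPL29), and whether reads were counted by strand is not given in the sources used here.

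Every member was enriched on ribosomes in wt. RNC-mRNA exceeded mRNA for 43 of 43 members at each time, by a median log2 ratio of 2.08 at 24 h, 2.14 at 48 h and 2.44 at 72 h. Of all genes tested 32.1%, 30.6% and 28.4% were called higher in RNC-mRNA at the 3 times, and the median gene lay at -0.03, -0.02 and -0.10. Averaged over time the members' ratio ranged from 1.13 for RPL8A to 3.30 for RPL37, that is 2.20-fold to 9.83-fold, with a median of 4.97-fold. RPL37, which binds rRNA through a zinc finger, had 347 and 229 CPM in RNC-mRNA and 40.0 and 71.2 CPM in mRNA at 24 h. At 72 h RPL37 had 177 and 512 CPM in RNC-mRNA and 23.8 and 31.0 CPM in mRNA. The RNC-mRNA libraries were the higher ones at both times, with no overlap. RPP2, an acidic stalk protein, and RPL43 came next at 3.17 ± 0.26 and 2.98 ± 0.25, and these 3 did not differ beyond their errors. At the low end RPL8A, which helps fold rRNA early in assembly, had 177 and 163 CPM in RNC-mRNA and 139 and 129 CPM in mRNA at 24 h. RPP0, the base of the stalk, had 1209.5 and 1318 CPM in RNC-mRNA and 846 and 808 CPM in mRNA at that time. Levels were scaled within each assay, whereas the ratios come from 1 scaling over both assays, which gave 2.84 ± 0.44 for RPL37, 0.81 ± 0.31 for RPL8A and 1.08 ± 0.38 for RPP0 at 24 h. RPL3, close to the catalytic centre, had an average log2 ratio of 1.27 ± 0.22, against 1.19 ± 0.22 for RPP0 and 1.13 ± 0.18 for RPL8A, again within their errors of each other.

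**Figure D1:**
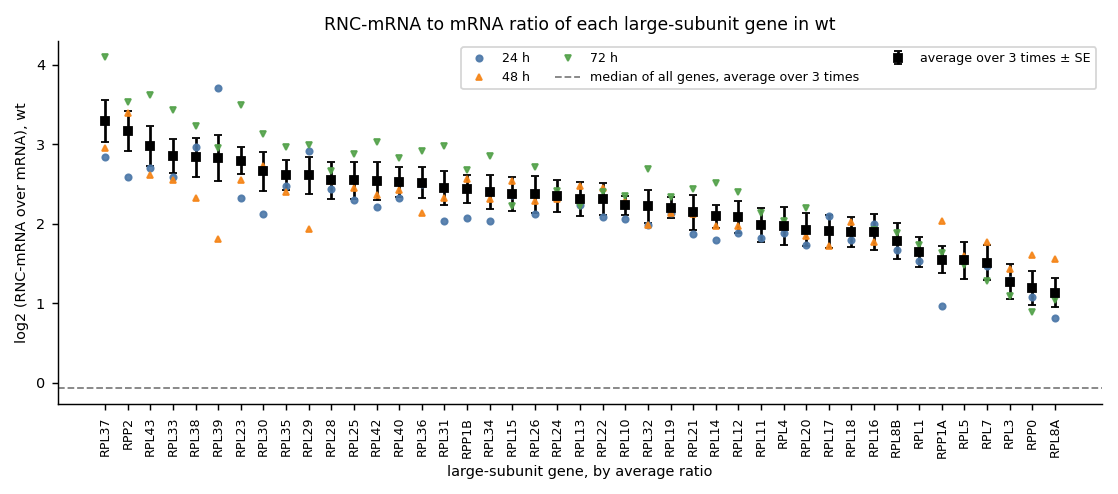
Log2 ratio of RNC-mRNA to mRNA in wt for each of the 43 members (vertical axis), ordered by the average over 3 times (black squares with SE); coloured points are the 24, 48 and 72 h values and the dashed line is the median of all genes. Every member lies above the line at every time, from RPL37 at 3.30 to RPL8A at 1.13.

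The ratio fell with listed length among the members. Over the 27 listed once, Spearman rho between length and average log2 ratio was -0.74 (Pearson r with log2 length -0.76), and over the 4807 genes listed once it was -0.58, both across genes within the same libraries and given as descriptions. The 16 members of 301 to 600 bp had a median log2 ratio of 2.33, against 0.99 for 554 genes of that length outside the ribosomal protein list. The 8 members of 601 to 1200 bp had 1.81, against 0.33 for 1599 such genes, and the 3 members up to 300 bp had 2.82, against 0.37 for 146 genes. The members thus lay above other genes of like length in each class, although short length moved with the ratio, and its part in the members' enrichment was not tested beyond these classes.

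Over the wt time course member mRNA declined. At 48 h against 24 h there were 0 of 43 higher and 23 lower among the members (all genes tested, 11.0% higher and 10.8% lower), with a median log2 fold change of -0.56. At 72 h against 24 h there were 0 of 43 higher and 34 lower (all genes, 14.1% and 15.7%), with a median of -0.72. RPL30, which in budding yeast controls splicing of its own transcript, fell most, with 74.2 and 78.2 CPM at 72 h against 187 and 218 CPM at 24 h (-1.41 ± 0.25, adjusted p = 0.00033). RPP2 had 35.4 and 44.5 CPM at 72 h against 85.5 and 105 CPM at 24 h (-1.25 ± 0.27, adjusted p = 0.0019). In both genes the 72 h libraries lay below the 24 h ones without overlap. RPL39 had 6.54 and 11.9 CPM at 72 h and 6.88 and 5.26 CPM at 24 h (0.64 ± 0.36, adjusted p = 0.19). RPL29 had 20.2 and 34.3 CPM at 72 h and 21.9 and 28.3 CPM at 24 h (0.13 ± 0.26, adjusted p = 0.75). The 2 times overlapped in both of these genes. The wt counts rested on single libraries, since without replicate 2 of wt at 24 h the count was 6 at 48 h and 19 at 72 h, without either wt replicate at 48 h it was 7 at 48 h, and without replicate 2 of wt at 72 h it was 20 at 72 h. Without either rpl9a∆ mRNA library of 48 h the 48 h count was 35, and with only the libraries compared it was 37.

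In wt RNC-mRNA the count depended on which libraries were fitted. In the fit over all 30 libraries edgeR called no member at 48 h or at 72 h (all genes, 0.653% higher and 0.307% lower at 48 h, 7.01% and 5.80% at 72 h). At an unadjusted p under 0.05 there were 7 members at 48 h and 1 at 72 h, and DESeq2 called 1 at 48 h and 0 at 72 h. With only the libraries compared, edgeR called 2 higher and 29 lower at 48 h, and none higher and 14 lower at 72 h. Without either rpl9a∆ RNC-mRNA library of 72 h the counts were 3 at 48 h and 6 at 72 h. The members' median was -0.44 at 48 h and -0.27 at 72 h. RPL3 had 1052 and 1161 CPM at 72 h and 2375 and 2444 CPM at 24 h (-1.12 ± 0.49, adjusted p = 0.14), and RPL15, a core rRNA-binding protein, had 1707 and 2024 CPM at 72 h and 3663 and 3544 CPM at 24 h (-0.95 ± 0.46, adjusted p = 0.19). Both were lower in each 72 h library than in each 24 h library, yet neither passed the test. RPL12, at the base of the stalk, had 1234 and 1607 CPM at 72 h and 1149 and 1199 CPM at 24 h (0.27 ± 0.42, adjusted p = 0.72). RPL43 had 429 and 1036 CPM at 72 h and 657 and 563 CPM at 24 h, with overlap (0.26 ± 0.47, adjusted p = 0.76).

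The share of host reads on the members fell much further in 3 of the 4 deletion strains than in wt. Summed over 42 members, mRNA held 1.52% ± 0.0962 of reads in rpl38∆ at 24 h, 0.788% ± 0.0453 at 48 h and 0.454% ± 0.0711 at 72 h. In rpl9a∆ the shares were 1.81% ± 0.169, 1.24% ± 0.411 and 0.328% ± 0.0365 at the same times, and in rps7∆ 1.75% ± 0.00994, 0.701% ± 0.0595 and 0.439% ± 0.00501. In rps25∆ they were 2.40% ± 0.105, 1.29% ± 0.0594 and 1.73% ± 0.233, against 1.85% ± 0.178, 1.46% ± 0.0273 and 1.31% ± 0.0299 in wt. At 72 h the 6 libraries of rpl38∆, rpl9a∆ and rps7∆ were all below the 2 of wt, and both rps25∆ libraries were above them. A share is relative to the other messages of a library, and fewer cells carrying a message cannot be told apart from less message per cell in such bulk samples.

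In RNC-mRNA the members held more of the reads and the order of strains was similar except for rpl9a∆. The shares in rpl38∆ were 3.97% ± 0.0917, 1.91% ± 0.136 and 1.15% ± 0.504 at 24, 48 and 72 h, in rps7∆ 4.54% ± 0.415, 1.74% ± 0.0215 and 1.19% ± 0.129, and in rps25∆ 5.78% ± 0.0336, 3.57% ± 0.129 and 4.34% ± 0.307, against 4.58% ± 0.0999, 3.88% ± 0.420 and 3.73% ± 0.404 in wt. In rpl9a∆ they were 4.65% ± 0.356, 3.03% ± 0.795 and 3.34% ± 2.64. The 2 rpl9a∆ libraries at 72 h held 1.47% and 5.21%, one below and one above both wt libraries.

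**Figure D2:**
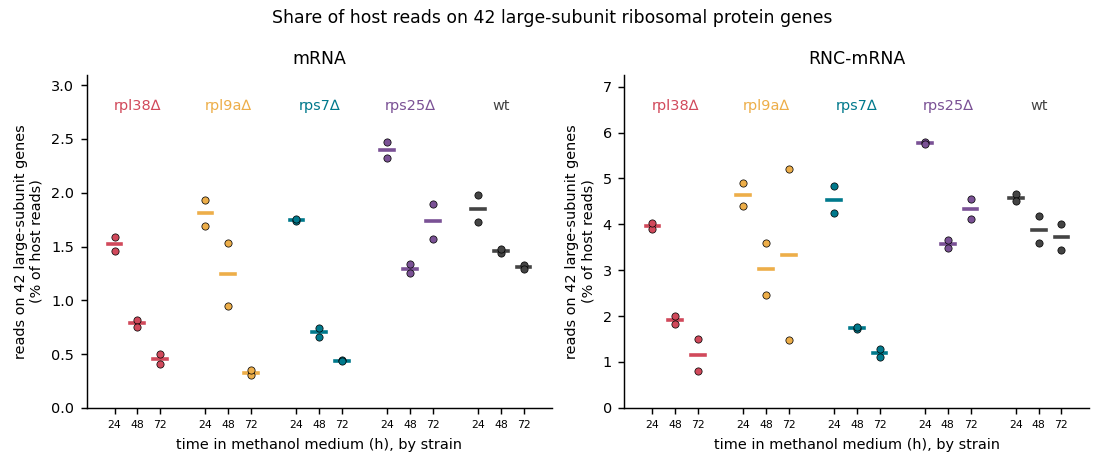
Share of host reads (percent, vertical axis) on 42 members in each library, by strain and time (h), for mRNA (left) and RNC-mRNA (right); points are libraries and bars the mean of 2. At 72 h in mRNA rpl38∆, rpl9a∆ and rps7∆ have means of 0.454%, 0.328% and 0.439%, against 1.31% in wt.

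Gene by gene, 6 members were called against wt mRNA at 24 h in rpl38∆ and 6 in rpl9a∆, whereas nearly all were lower at 72 h in rpl38∆, rpl9a∆ and rps7∆. All comparisons share the wt libraries, so their values are given side by side. In rpl38∆ at 24 h there were 2 of 42 higher and 4 lower (all genes, 25.1% and 24.0%), with a median log2 fold change of -0.11. At 48 h there were 0 of 42 higher and 33 lower (all genes, 29.3% and 31.8%; median -0.86), and at 72 h 0 of 42 higher and 41 lower (all genes, 32.5% and 32.0%; median -1.68). RPL8A was the member not called at 72 h. Both replicates were below both wt replicates for 42 of 42 members at 72 h, and fold changes ranged from -2.62 to -0.40. How many of all genes lay apart from wt in this way is not given here, so that count only describes the members. The 24 h count was 3 without replicate 1 of wt at 24 h, 10 and 12 without replicate 1 or 2 of rpl9a∆ at 48 h, and 12 with only the libraries compared.

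In rpl9a∆ the share of members called was above that of all genes at 72 h only, when all were lower. At 24 h there were 6 of 43 higher and 0 lower (all genes, 24.9% and 24.1%; median 0.26), at 48 h 0 of 43 higher and 8 lower (all genes, 22.6% and 19.1%; median -0.20), and at 72 h 0 of 43 higher and 43 lower (all genes, 33.0% and 32.6%; median -2.22). The 6 higher at 24 h were RPL5, RPL20, RPL38, RPL39, RPL43 and RPL8B, and all 6 were lower at 72 h. Fold changes at 72 h ranged from -3.44 to -0.45. The 24 h count was 2 without replicate 1 of wt at 24 h, 3 and 2 without replicate 1 or 2 of rpl9a∆ at 24 h, and 21 and 18 without replicate 1 or 2 of rpl9a∆ at 48 h. In the 24 h comparison 18 were higher and 1 lower with only the libraries compared, and 1 was higher and 2 lower when scaled by library size alone. The 48 h count was 0 with only the libraries compared and 3 without either wt library of that time, with 36 lower without replicate 1 of rpl9a∆, and 8 higher and 2 lower without replicate 2.

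In rps7∆ nearly all members were already lower at 48 h. At 24 h there were 3 of 43 higher and 9 lower (all genes, 33.0% and 30%; median -0.25), at 48 h 0 of 43 higher and 41 lower (all genes, 34.7% and 32.2%; median -1.72), and at 72 h 0 of 43 higher and 43 lower (all genes, 34.2% and 32.6%; median -2.16). RPL22 and RPL37 were the members not called at 48 h. At both later times both rps7∆ libraries were below both wt libraries for 43 of 43 members, again with no such count over all genes. Fold changes at 72 h ranged from -3.46 to -0.76. The 24 h count was 24 and 25 without replicate 1 or 2 of rpl9a∆ at 48 h, and 27 with only the libraries compared.

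In rps25∆ calls at 24 and 48 h went in both directions, at shares near or below those of all genes. At 72 h nearly all calls were higher. The share called higher was above that of all genes, and the share called in either direction was near it. At 24 h there were 14 of 43 higher and 4 lower (all genes, 31.8% and 26.5%; median 0.20), at 48 h 8 of 43 higher and 13 lower (all genes, 25.0% and 28.2%; median -0.12), and at 72 h 20 of 43 higher and 1 lower (all genes, 26.2% and 24.3%; median 0.47). Higher at all 3 times were RPL31, RPL33, RPL34, RPL36, RPL37 and RPL43, and RPP0 was lower at all 3. The 24 h count was 4 without replicate 2 of rps25∆ at 24 h, 6 without replicate 1 of wt at 24 h, and 31 and 30 without replicate 1 or 2 of rpl9a∆ at 48 h. The 72 h count was 12 without replicate 1 of rps25∆ at 72 h and 32 without either rpl9a∆ library of 48 h. With only the libraries compared the 3 counts were 20 higher and 12 lower, 16 higher and 17 lower, and 28 higher and 7 lower. Scaled by library size alone, 13 were higher and 11 lower at 48 h.

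In RNC-mRNA nearly all members were lower at 72 h in rpl38∆ and rps7∆, and in rps25∆ the counts depended on which libraries were fitted. In rpl38∆ there were 1 of 42 higher and 0 lower at 24 h (all genes, 12.3% and 12.9%), 0 of 42 higher and 29 lower at 48 h (all genes, 23.4% and 22.8%) and 0 of 42 higher and 42 lower at 72 h (all genes, 22.6% and 23.4%), with medians of -0.22, -1.42 and -2.32. At 72 h the rpl38∆ median was -1.93 without replicate 1 of rpl38∆ and -2.94 without replicate 2, with 41 and 42 members lower. In rps7∆ there were 1 of 43 higher and 1 lower at 24 h (all genes, 18.5% and 20.5%), 0 of 43 higher and 42 lower at 48 h (all genes, 22.0% and 23.0%) and 0 of 43 higher and 42 lower at 72 h (all genes, 23.9% and 23.5%), with medians of -0.23, -2.33 and -2.78. RPL29 was the member not called at 48 and 72 h in rps7∆. In rps25∆ there were 2 of 43 higher and 0 lower at 24 h (all genes, 14.7% and 13.5%), 2 of 43 higher and 6 lower at 48 h (all genes, 13.5% and 13.9%) and 0 of 43 higher and 2 lower at 72 h (all genes, 14.0% and 14.6%), with medians of 0.04, -0.39 and -0.16. The rpl38∆ count at 48 h was 19 without replicate 2 of wt at 48 h and 18 without replicate 2 of rpl38∆ at 48 h, and 19 when scaled by library size alone. Without either rpl9a∆ library of 72 h the 24 h counts were 4 in rpl38∆, 10 in rps7∆ and 4 in rps25∆, and in rps25∆ those at 48 and 72 h were 18 and 4. The rps25∆ count at 48 h was 3 and 2 without replicate 1 or 2 of rps25∆ at 48 h, and 5 and 3 without replicate 1 or 2 of wt at 48 h, and the other counts of 1 or 2 went to 0 without some single libraries. With only the libraries compared, rps25∆ had 13 higher and 5 lower at 24 h, 7 higher and 25 lower at 48 h, and 1 higher and 10 lower at 72 h. That fit gave 4 higher and 16 lower in rpl38∆ at 24 h, and 6 higher and 21 lower in rps7∆ at 24 h. Scaled by library size alone, rps25∆ had 7 higher and 5 lower at 48 h.

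In rpl9a∆ RNC-mRNA the counts depended on the libraries used. At 24 h edgeR called none of 43 in the fit over all libraries (all genes, 8.79% and 9.14%), with 0 at an unadjusted p under 0.05 and 0 by DESeq2, and the median was 0.16. At 24 h, 17 were higher and 4 lower with only the libraries compared. At 48 h there were 0 of 43 higher and 5 lower (all genes, 8.46% and 7.74%; median -0.59), namely RPL7, RPL8A, RPL22, RPP0 and RPP1A, and 0 were called with only the libraries compared. The count was 4 without replicate 1 of that group, 0 without replicate 2, 19 without either rpl9a∆ library of 72 h, 1 without replicate 2 of wt at 48 h, and 3 without many other single libraries. At 72 h edgeR called none of 43 (all genes, 7.89% and 6.33%), with 5 at an unadjusted p under 0.05 and 1 by DESeq2, and the median was -0.37. Replicate 1 at 72 h was below both wt libraries for 43 of 43 members, whereas replicate 2 was above both for 25, between them for 17 and below both for 1. The like counts over all genes are not given here. Without replicate 2 the members' median was -1.87, and without replicate 1 it was 0.31. In RPL3 the 2 libraries had 279.7 and 2081 CPM, against 1052 and 1161 CPM in wt.

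**Figure D3:**
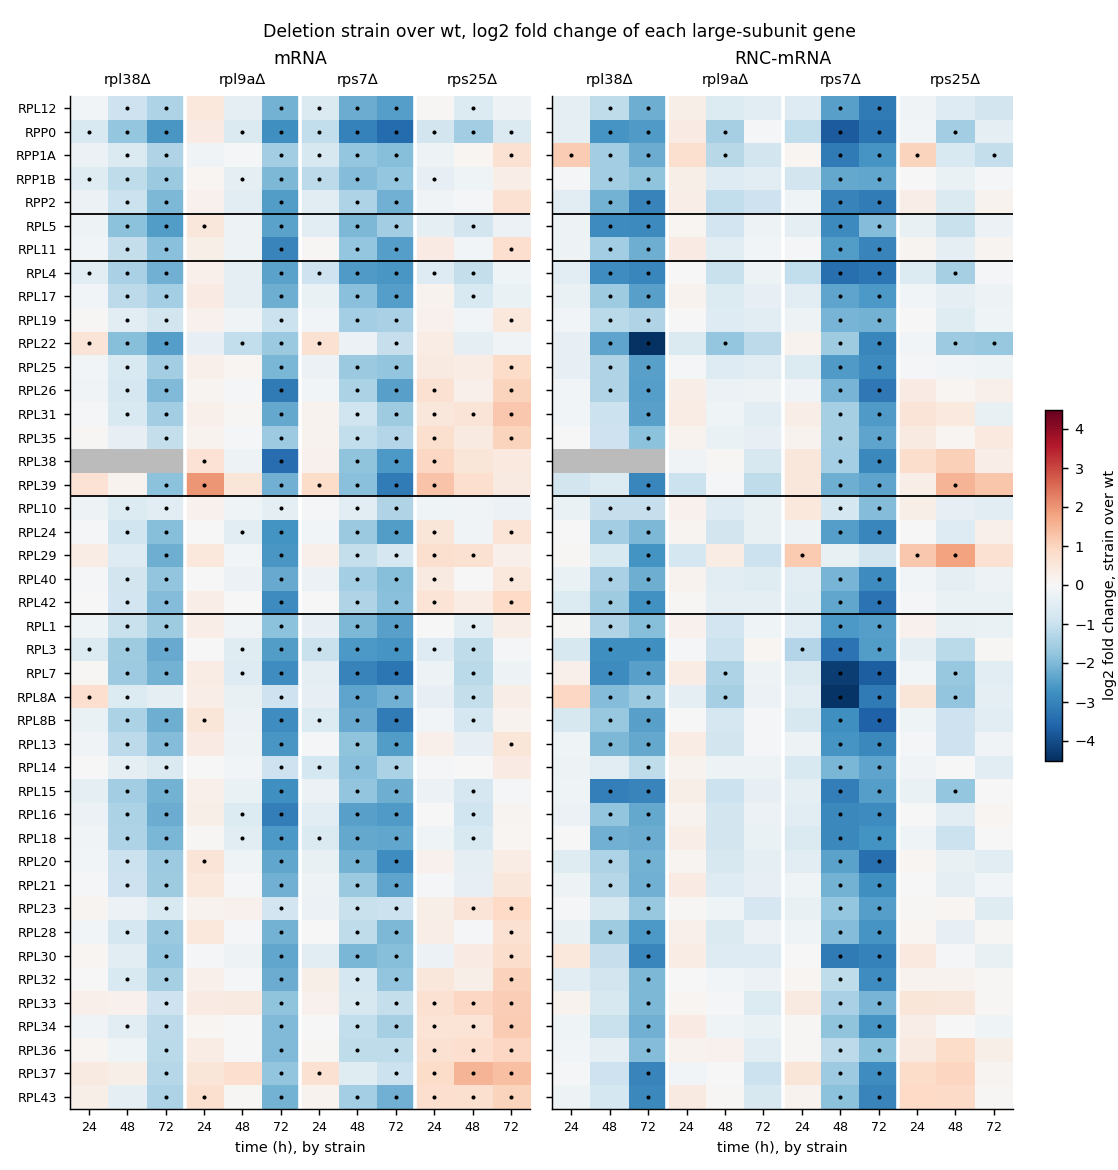
Log2 fold change of deletion strain over wt (colour) for each member (one line per gene, grouped from the top as stalk, 5S particle, tunnel, late joining and other) by strain and time (h), in mRNA (left) and RNC-mRNA (right); a dot marks adjusted p under 0.05 and grey the deleted RPL38. In mRNA at 72 h all 43 members are lower in rpl9a∆ and rps7∆ and 41 of 42 in rpl38∆, while 20 of 43 are higher in rps25∆.

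The stalk genes fell in mRNA with the rest and included the member with the lowest values overall. All 5 (RPP0, RPP1A, RPP1B, RPP2 and RPL12) were lower at 72 h in rpl38∆, rpl9a∆ and rps7∆, with medians of -1.68, -2.12 and -2.16, and in rps25∆ 1 was higher and 1 lower. Over all members rps25∆ had 20 of 43 higher and 1 lower at that time. Counts by class, here and below, are to be read against those of all members and the shares of all genes given above. No class was tested against the other members. RPP0 had the lowest mean log2 fold change over the 12 comparisons in mRNA, -1.56, and was lower in 11 of them. At 72 h RPP0 had 93.5 and 79.0 CPM in rpl38∆, 71.1 and 86.9 in rpl9a∆, 49.9 and 46.5 in rps7∆ and 359 and 319 in rps25∆, against 583 and 485 CPM in wt. Every deletion library was below both wt libraries. The lowest fold change was rps7∆ over wt (-3.46 ± 0.19, adjusted p = 2.3e-12), and rps25∆ over wt was -0.66 ± 0.17, adjusted p = 0.0031. At 24 h RPP0 was already lower in rps7∆ (-1.09 ± 0.17, adjusted p = 1.2e-05), rps25∆ (-0.83 ± 0.17, adjusted p = 0.00027) and rpl38∆ (-0.68 ± 0.17, adjusted p = 0.0023). In rpl9a∆ at 24 h it had 972 and 1164 CPM, against 846 and 808 CPM in wt, above both wt libraries but not called (adjusted p = 0.076).

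The acidic proteins RPP1A and RPP1B are paralogs that bind the stalk in pairs with P2 proteins. In RNC-mRNA at 24 h RPP1A had 555 and 689 CPM in rpl38∆ and 649.7 and 463 in rps25∆, against 280.0 and 279 CPM in wt. Both strains were above wt without overlap, at 1.15 ± 0.36, adjusted p = 0.023 and 0.99 ± 0.36, adjusted p = 0.044. Both calls were lost without some single libraries. The call in rps25∆ was also lost when TMM factors came from genes outside the ribosomal protein list. RPP1B at that time had 573 and 766 CPM in rpl38∆ and 750.3 and 707 in rps25∆, against 751 and 683 CPM in wt, overlapping in both. By 72 h RPP1A in RNC-mRNA had 52.6 and 50.5 CPM in rpl38∆, 40.8 and 35.5 in rps7∆ and 117 and 111 in rps25∆, against 181 and 300.5 CPM in wt. All 6 of those libraries were below wt. In rps25∆ RPP1A therefore had opposite signs in the 2 assays at 72 h, with -1.08 ± 0.37, adjusted p = 0.033 in RNC-mRNA and 0.69 ± 0.17, adjusted p = 0.0017 in mRNA. That RNC-mRNA call in rps25∆ was lost without some single libraries.

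RPP2 is the partner of the P1 proteins. In mRNA at 72 h it had 12.1 and 6.69 CPM in rpl38∆, 5.37 and 8.71 in rpl9a∆ and 11.1 and 5.38 in rps7∆, against 35.4 and 44.5 CPM in wt, with fold changes of -2.01 ± 0.33, -2.51 ± 0.33 and -2.16 ± 0.33, all called. RPL12 at 72 h had 148 and 132 CPM in rpl38∆, 68.1 and 102 in rpl9a∆ and 64.0 and 71.1 in rps7∆, against 404 and 338 CPM in wt. The groups did not overlap in either gene.

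RPL5 and RPL11 bring the 5S ribosomal RNA to the subunit. Both were lower at 72 h in mRNA of rpl38∆, rpl9a∆ and rps7∆, while RPL11 was higher in rps25∆. RPL5 had 1855 and 2156 CPM in rpl9a∆ at 24 h, against 1348 and 1438 CPM in wt (0.52 ± 0.21, adjusted p = 0.044), and 155 and 192 CPM at 72 h, against 945 and 881 CPM in wt (-2.40 ± 0.22, adjusted p = 8.1e-09). It was thus above wt at the first time and below it at the last, with no overlap at either.

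Of the 10 genes grouped as tunnel wall and exit rim (RPL4, RPL17, RPL19, RPL22, RPL25, RPL26, RPL31, RPL35, RPL38 and RPL39), all counted were lower at 72 h in mRNA of rpl38∆ (9 of 9), rpl9a∆ (10 of 10) and rps7∆ (10 of 10), and 5 were higher in rps25∆. The last count was near the proportion over all members in rps25∆, 20 of 43, and the shares of all genes are given above. RPL25 is the docking site of the signal recognition particle, RPL4 and RPL17 reach into the tunnel, and RPL31 and RPL35 lie at the rim of the exit. RPL4 had 188 and 231 CPM in RNC-mRNA of rps7∆ at 48 h, 314 and 326 in rpl38∆ and 748 and 838 in rps25∆, against 2203 and 2245 CPM in wt. All 6 libraries were below wt, at -3.41 ± 0.56, adjusted p = 6.4e-05 in rps7∆, -2.80 ± 0.55, adjusted p = 0.00036 in rpl38∆ and -1.49 ± 0.52, adjusted p = 0.039 in rps25∆. RPL19, among the most abundant of the 27 members with a level per length, was also lower, with 398 and 400.4 CPM in mRNA of rpl9a∆ at 72 h, against 795 and 772 CPM in wt (-0.97 ± 0.14, adjusted p = 2.5e-06), a fold change closer to 0 than the member median of -2.22.

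In mRNA RPL22 was higher than in wt at 24 h in rpl38∆ and rps7∆ and lower than in wt in both at 72 h. In mRNA at 24 h it had 154 and 154 CPM in rpl38∆ and 157 and 172 in rps7∆, against 85.6 and 118 CPM in wt (0.59 ± 0.19, adjusted p = 0.013 in rpl38∆, 0.69 ± 0.19, adjusted p = 0.003 in rps7∆). In RNC-mRNA at 72 h it had 7.98 and 15.8 CPM in rpl38∆, 26.8 and 39.0 in rps7∆ and 96.5 and 61.0 in rps25∆, against 208 and 304 CPM in wt. These 6 libraries were all below wt, and the rpl38∆ value, -4.43 ± 0.49, adjusted p = 1.5e-06, was the lowest of any member in that comparison. RPL22 had the lowest mean log2 fold change of the members in RNC-mRNA, -1.55, and was lower in 7 of 12 comparisons.

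RPL39 and RPL38 were the scarcest of this group. RPL39 had 24.8 and 22.9 CPM in mRNA of rpl9a∆ at 24 h, 12.6 and 16.5 in rps25∆ and 10.7 and 10.7 in rps7∆, against 6.88 and 5.26 CPM in wt. All 6 were above wt, at 1.99 ± 0.33, adjusted p = 4.9e-05 in rpl9a∆, 1.27 ± 0.32, adjusted p = 0.0018 in rps25∆ and 0.83 ± 0.34, adjusted p = 0.037 in rps7∆. At 72 h it had 2.63 and 1.52 CPM in rpl9a∆ and 1.02 and 1.08 in rps7∆, against 6.54 and 11.9 CPM in wt, below wt in each library. RPL38 had 3.22 and 4.42 CPM in rpl9a∆ at 72 h and 8.17 and 4.74 in rps7∆, against 35.6 and 46.9 CPM in wt (-3.44 ± 0.34, adjusted p = 1.7e-08 in rpl9a∆, -2.58 ± 0.31, adjusted p = 3.4e-07 in rps7∆).

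The late-joining genes were RPL10, RPL24, RPL29, RPL40 and RPL42. RPL10 and RPL24 are loaded in the cytoplasm, and RPL40 is made as a fusion with ubiquitin. All 5 were lower at 72 h in mRNA of rpl38∆, rpl9a∆ and rps7∆ (medians -1.93, -2.63 and -1.88), and 3 were higher in rps25∆. These counts too are to be read against those of all members and all genes. RPL29 had calls in both directions in RNC-mRNA. At 24 h it had 341 and 283 CPM in rps7∆ and 331 and 304 in rps25∆, against 178 and 96.9 CPM in wt, above both wt libraries (1.19 ± 0.44, adjusted p = 0.036 in rps7∆, 1.21 ± 0.44, adjusted p = 0.042 in rps25∆). Both 24 h calls of RPL29 were lost without some single libraries. The one in rps25∆ was also lost when TMM factors came from genes outside the ribosomal protein list. At 48 h it had 148 and 217 CPM in rps25∆, against 61.2 and 42.7 CPM in wt (1.81 ± 0.46, adjusted p = 0.006). At 72 h it had 14.5 and 35.2 CPM in rpl38∆, against 92.9 and 228 CPM in wt (-2.68 ± 0.47, adjusted p = 0.00016). Its wt libraries spread widely at 24 and 72 h, and its mean log2 fold change over the 12 comparisons, -0.08, was the highest of the members in RNC-mRNA.

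**Figure D4:**
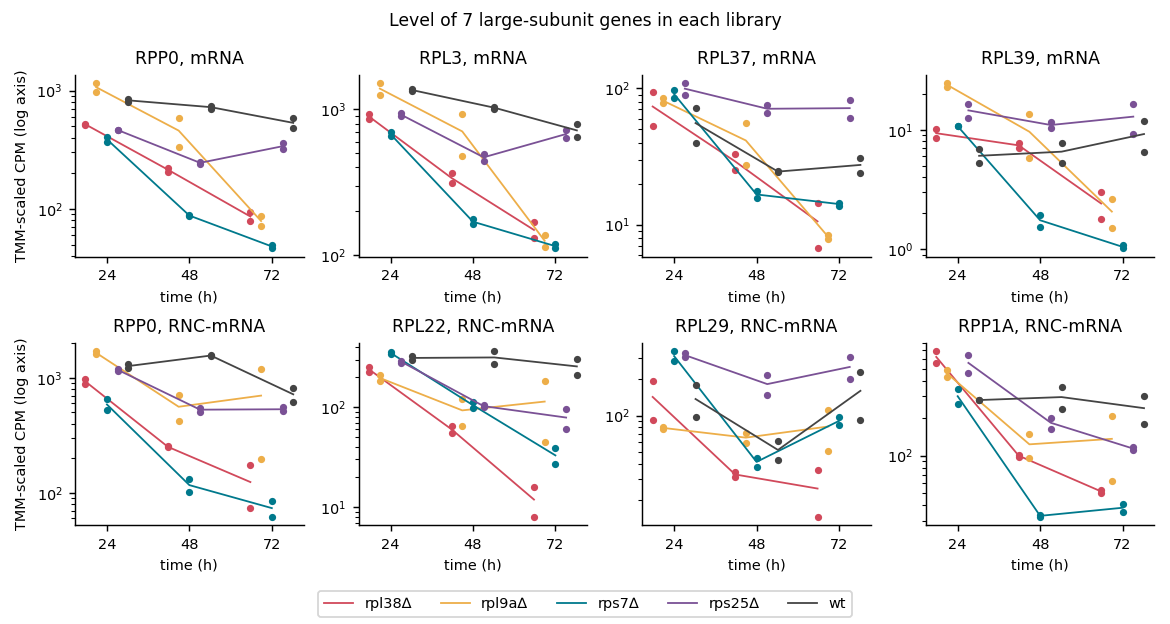
Level (TMM-scaled CPM, log axis) against time (h) in each library for selected members, with mRNA in the upper panels and RNC-mRNA in the lower; points are libraries, offset sideways by strain, and lines join the means of 2. RPP0 in mRNA at 72 h lies at 46.5 to 93.5 CPM in rpl38∆, rpl9a∆ and rps7∆, against 485 and 583 CPM in wt, and RPL39 at 24 h is higher in rpl9a∆ (24.8 and 22.9 CPM) than in wt (6.88 and 5.26 CPM).

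Among the remaining 21 members, which sit at other positions of the subunit, 20 were lower in mRNA at 72 h in rpl38∆, 21 in rpl9a∆ and 21 in rps7∆, and 10 were higher in rps25∆. The proportions over all members and all genes in these comparisons are given above. RPL3 had the second lowest mean log2 fold change in mRNA, -1.29, and was lower in 10 of 12 comparisons. At 48 h it had 364 and 312 CPM in rpl38∆, 163 and 176 in rps7∆ and 493 and 445 in rps25∆, against 1013 and 1041 CPM in wt. All 6 were below wt (-1.60 ± 0.20, adjusted p = 8.2e-07 in rpl38∆, -2.60 ± 0.21, adjusted p = 8.8e-10 in rps7∆, -1.13 ± 0.20, adjusted p = 7.6e-05 in rps25∆). RPL16, an abundant member, had 67.2 and 101 CPM in rpl9a∆ at 72 h, against 732 and 707 CPM in wt (-3.10 ± 0.23, adjusted p = 2.3e-10). RPL15 had 357 and 323 CPM in RNC-mRNA of rpl38∆ at 48 h, 308 and 349.7 in rps7∆ and 725 and 971 in rps25∆, against 2762 and 2950.2 CPM in wt, with no overlap and all 3 called.

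RPL8A and RPL8B are paralogs, and in rpl38∆ at 24 h their fold changes had opposite signs. In mRNA RPL8A had 220.4 and 228 CPM in rpl38∆, against 139 and 129 CPM in wt (0.74 ± 0.24, adjusted p = 0.014). RPL8B had 452 and 509 CPM in rpl38∆, against 554 and 629 CPM in wt (-0.30 ± 0.20, adjusted p = 0.22) and was not called. In rpl9a∆ at 72 h RPL8A had 38.9 and 40.3 CPM, against 83.1 and 68.2 CPM in wt (-0.93 ± 0.26, adjusted p = 0.0035), and RPL8B had 46.8 and 54.3 CPM, against 374 and 334 CPM in wt (-2.81 ± 0.21, adjusted p = 4.2e-10). Both genes were below wt there. The difference between the paralogs was not tested, and how reads that match both copies were counted is not given in the sources used here. In RNC-mRNA of rps7∆ at 48 h RPL8A had 11.2 and 14.4 CPM, against 278 and 262 CPM in wt (-4.41 ± 0.42, adjusted p = 6.4e-08).

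RPL37 and RPL33 had the highest mean log2 fold changes in mRNA, 0.15 and -0.04. RPL37 in rps25∆ had 89.2 and 109.9 CPM at 24 h, 66.0 and 75.7 at 48 h and 82.3 and 60.8 at 72 h, against 40.0 and 71.2, 24.6 and 24.4 and 23.8 and 31.0 CPM in wt at those times. It was above wt at every time, at 0.83 ± 0.29, adjusted p = 0.017 at 24 h, 1.53 ± 0.32, adjusted p = 0.00039 at 48 h and 1.36 ± 0.32, adjusted p = 0.0015 at 72 h. RPL33 in rps25∆ had 199.9 and 134 CPM at 72 h, against 69.6 and 83.6 CPM in wt (1.11 ± 0.29, adjusted p = 0.0033). RPL36 had 356 and 253 CPM in rps25∆ at 72 h, against 147 and 174 CPM in wt (0.91 ± 0.22, adjusted p = 0.0015), and RPL43 had 212 and 124 CPM, against 71.1 and 92.9 CPM (1.02 ± 0.28, adjusted p = 0.0049). In these last 3 genes both rps25∆ libraries were above both wt libraries. RPL30 had 159 and 109 CPM in rps25∆, against 74.2 and 78.2 CPM in wt (0.80 ± 0.25, adjusted p = 0.012).

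RPL28 was looked at apart, because the product text beside its identifier in the study's list names a sugar transporter. Its level moved with the other members over the 30 libraries of each assay, with a correlation of 0.99 in each between log2 RPL28 and the mean of the others, given as a description. RPL28 had 84.4 and 64.3 CPM in rpl38∆ at 72 h, 50.4 and 59.98 in rpl9a∆, 60.4 and 58.2 in rps7∆ and 435 and 338 in rps25∆, against 241 and 238 CPM in wt. It was below wt in the first 3 strains without overlap and above wt in rps25∆ (0.69 ± 0.22, adjusted p = 0.012). For the members in general this correlation ranged from 0.764 to 0.995 in mRNA, over 0.9 for 37 of 42, and from 0.659 to 0.995 in RNC-mRNA, over 0.9 for 36 of 42. The lowest 5 in both assays were RPL22, RPL10, RPL8A, RPL29 and RPL39. The points share scaling and come from 15 groups per assay, so they are not independent.

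The fold changes of members were ordered by length most clearly in rps25∆. Over 27 members listed once, Spearman rho between log2 fold change and length was -0.76 at 24 h, -0.87 at 48 h and -0.60 at 72 h in mRNA. The values over all 4802 genes listed once were -0.21, -0.27 and -0.21 at these times. At 48 h the 12 members under 400 bp had a median of 0.40 and the 15 of 400 bp or more had -0.48. In rps7∆ at 48 h rho was -0.48, with medians of -1.29 for members under 400 bp and -2.01 for longer ones, and all genes had -0.14. In rpl9a∆ at 72 h it was -0.09. These are descriptions across genes, which are not independent replicates, and the part of length in the calls was not tested.

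**Figure D5:**
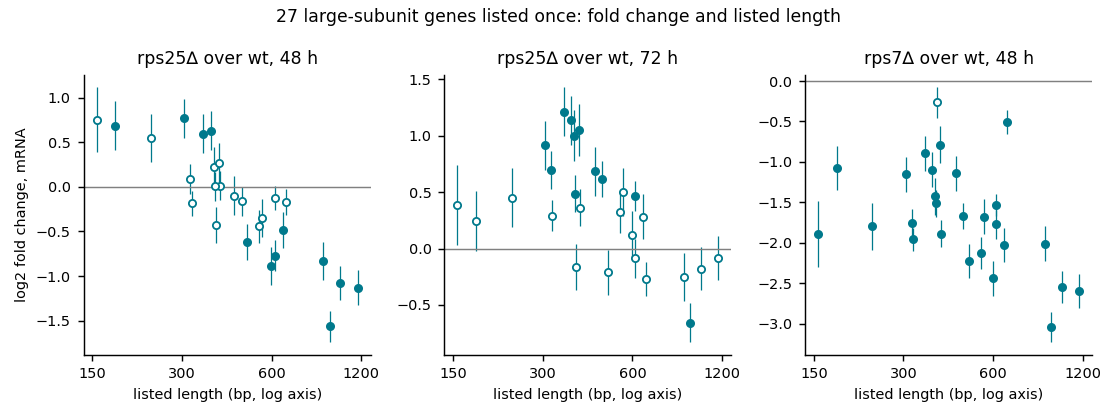
Log2 fold change in mRNA (vertical axis, bars ± SE) against listed length (bp, log axis) for 27 members listed once, in rps25∆ over wt at 48 h and 72 h and rps7∆ over wt at 48 h; filled points passed adjusted p under 0.05. In rps25∆ at 48 h the 12 members under 400 bp have a median of 0.40 and the 15 longer ones -0.48.

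The change over time in mRNA differed from that of wt for nearly all members in rpl38∆, rpl9a∆ and rps7∆, by a test of the difference itself. For the change by 72 h against 24 h minus that in wt, mRNA gave 0 of 42 higher and 41 lower in rpl38∆ (all genes, 28.0% and 26.7%; median -1.65), 0 of 43 higher and 43 lower in rpl9a∆ (all genes, 32.6% and 32.4%; median -2.60) and 0 of 43 higher and 43 lower in rps7∆ (all genes, 23.3% and 25.7%; median -1.73). In rps25∆ there were 3 of 43 higher and 0 lower (all genes, 20.0% and 19.6%; median 0.30), namely RPP1A, RPP1B and RPL30. RPL39 had the most negative value in rpl9a∆ (-4.16 ± 0.54, adjusted p = 1.0e-06), and RPL22 in rpl38∆ (-3.06 ± 0.30, adjusted p = 4.7e-08). In RNC-mRNA there were 0 of 42 higher and 38 lower in rpl38∆ (all genes, 17.6% and 16.8%; median -2.10) and 0 of 43 higher and 41 lower in rps7∆ (all genes, 16.2% and 17.8%; median -2.58). There were 0 of 43 higher and 1 lower in rpl9a∆ (all genes, 9.16% and 8.52%; median -0.51) and 0 of 43 higher and 1 lower in rps25∆ (all genes, 7.06% and 8.89%; median -0.18), in both cases RPP1A. Without replicate 2 of rpl9a∆ at 72 h the rpl9a∆ count in RNC-mRNA was 41, all lower, and it was 0 without replicate 1, with only the libraries compared and when scaled by library size alone. The removal of single libraries moved other counts too, since the rpl38∆ count in RNC-mRNA was 14 without replicate 1 of rpl38∆ at 72 h (median -1.78), 40 without replicate 2 (median -2.77), 24 without replicate 2 of wt at 24 h and 21 without replicate 2 of wt at 72 h. In rps25∆ the mRNA count was 18 and 17 without replicate 1 or 2 of rpl9a∆ at 48 h and 1 without replicate 1 of rps25∆ at 72 h, and the RNC-mRNA count was 3 without either rpl9a∆ library of 72 h. With only the libraries compared, rps25∆ had 14 higher and 2 lower in mRNA and 1 higher and 8 lower in RNC-mRNA, and scaled by library size alone it had 1 higher and 2 lower in mRNA.

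The ratio of RNC-mRNA to mRNA, averaged over the 3 times, was lower than in wt for RPL22 in rpl38∆, rps7∆ and rps25∆, and how many other members were called depended on the fit. In rpl38∆ there were 0 of 42 higher and 3 lower (all genes, 6.11% and 5.15%; median -0.43), in rps7∆ 0 of 43 higher and 5 lower (all genes, 9.65% and 7.50%; median -0.43), in rps25∆ 0 of 43 higher and 2 lower (all genes, 8.13% and 7.67%; median -0.30) and in rpl9a∆ 1 of 43 higher and 0 lower (all genes, 4.94% and 2.73%; median 0.48). RPL22 was lower in all 3 strains with lower calls, at -1.13 ± 0.29, adjusted p = 0.01 in rpl38∆, -1.23 ± 0.28, adjusted p = 0.0018 in rps7∆ and -1.08 ± 0.28, adjusted p = 0.0062 in rps25∆. RPL37 (-1.10 ± 0.36 in rpl38∆, -1.01 ± 0.35 in rps7∆) and RPL8A (-0.79 ± 0.26 in rpl38∆, -1.03 ± 0.27 in rps7∆) were lower in 2 strains. The gene higher in rpl9a∆ was RPL26, and RPL23 and RPL42 were also lower in rps7∆. In rpl9a∆ 30 members were higher without the first 72 h RNC-mRNA library (replicate 1), and 1 was lower without replicate 2. The ratio counts of the other strains were 12 in rpl38∆, 13 in rps7∆ and 7 in rps25∆ without either of those libraries. Fitted with only the libraries compared, the counts were 11 lower in rpl38∆, 28 lower in rps7∆, 1 higher and 25 lower in rps25∆, and 0 in rpl9a∆. Scaled by library size alone, 17 were higher in rpl9a∆ and 1 was lower in rpl38∆. Each sample was split between the assays, so same-numbered libraries of a strain and time may be aliquots of 1 culture. With each such pair as a replicate block, 5 were lower in rpl38∆, 5 lower in rps7∆, 1 higher and 4 lower in rps25∆, and 1 higher in rpl9a∆. Dropping the rpl38∆ RNC-mRNA library of 72 h numbered 1 left 1 call in rpl38∆, and dropping number 2 gave 11. The small counts moved with many single libraries, down to 1 in rpl38∆, 2 in rps7∆, 1 in rps25∆ and 0 in rpl9a∆.

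The small-subunit genes of the same list, 37 in all, were counted in the same way. In mRNA at 72 h there were 0 of 37 higher and 36 lower in rpl38∆, 0 of 37 higher and 37 lower in rpl9a∆, 0 of 36 higher and 34 lower in rps7∆ and 19 of 36 higher and 0 lower in rps25∆, with medians of -1.70, -2.42, -1.98 and 0.59. The 6 paralog genes left out of the members had 0 of 6 higher and 6 lower in rpl38∆, 0 of 5 higher and 5 lower in rpl9a∆ (without the deleted RPL9A), 0 of 6 higher and 6 lower in rps7∆ and 2 of 6 higher and 0 lower in rps25∆. In wt the small-subunit genes were also enriched on ribosomes, with 36 of 37 higher and 0 lower at 24 h. The shares of all genes called in these comparisons are given with the members above, and these counts are to be read against them. No difference between the subunits was tested. The share of reads was also summed over the members without RPL38 and over the small-subunit genes without RPS7 and RPS25. In mRNA at 72 h the first share (mean of 2 libraries) was 1.37 times the second in rpl38∆, and 1.58 times in rpl9a∆. The factor was 1.44 in rps7∆ and 1.18 in rps25∆, against 1.29 in wt. It depends on how many genes enter each sum, and its differences between strains were not tested.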

How the data were processed

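The files hold, for each of 60 libraries, a read count and an RPKM value per gene. Per the study's methods, polyadenylated RNA was selected, made into NEBNext Ultra II libraries and sequenced on an Illumina instrument. Base calls came from bcl2fastq 2.17 per the submitters' processing notes, and neither aligner, counter nor build is given in the sources used here. The authors deposited raw counts, which entered every test, and RPKM, which was recomputed from the counts as a check only (largest difference 0.00012%). The authors deposited Phy reads in a separate table, as text with grouping commas, and these entered each fit as 1 more gene. Members and gene lists were chosen with earlier results of these data known.

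A gene was kept if over 10 reads fell on it in 2 or more libraries, which left 5229 genes in mRNA, 5210 in RNC-mRNA and 5241 for the ratio. Counts were scaled by TMM and fitted with edgeR 4.0.16 quasi-likelihood models (R 4.3.3) over all strain and time groups of an assay, or of both assays for ratios. Adjusted p-values (Benjamini-Hochberg) covered all genes tested, with a threshold of 0.05. The deleted gene was left out of counts in its strain. Every member was named with a wt level. Values per library were given for 23 members: the 3 highest and 3 lowest by wt level per length and by wt ratio, the 2 highest and 2 lowest by mean fold change and by wt time course in each assay, RPL38, RPL28 and the paralogs RPL8A, RPL8B, RPP1A and RPP1B. Alternatives were DESeq2 1.42.0, its size factors, TMM from genes outside the list, library size alone, no filter, over 10 reads in every library, only the libraries compared, a replicate block, and leaving out each library. For the block in ratios, the study's methods split each sample between the assays, but the labels do not say that a replicate number marks 1 culture in both. Deviations of same-numbered assays from their group means correlated at -0.21 to 0.86 (median 0.03, over 0.1 in 4 of 15 strain and time groups). The code was tested on simulated data.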

Additional observations from a re-analysis of the deposited data

Results flagged for a closer look

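The change in members by 72 h against 24 h was tested against that in wt in each strain, and the counts below are members for which the test of the difference passed an adjusted p under 0.05 (edgeR, Benjamini-Hochberg). In mRNA there were 41 of 42 in rpl38∆, 43 of 43 in rpl9a∆ and 43 of 43 in rps7∆, all lower, and 3 of 43 in rps25∆, all higher. In RNC-mRNA there were 38 of 42 in rpl38∆ and 41 of 43 in rps7∆, and 1 of 43 each in rpl9a∆ and rps25∆, all lower. The RNC-mRNA to mRNA ratio over the 3 times differed from that in wt for 3 of 42 members in rpl38∆, 5 of 43 in rps7∆ and 2 of 43 in rps25∆, all lower, and for 1 of 43 in rpl9a∆, which was higher. The shares of all genes called in these tests are given with the results above. For the ratio in every strain, and for both changes in rps25∆ and the RNC-mRNA change in rpl9a∆, the share of members called was below that of all genes.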

How the results depend on the processing

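Counts stayed within 1.5 times under every alternative run for members lower in mRNA at 72 h in rpl38∆, rpl9a∆ and rps7∆, for mRNA at 48 h in rpl38∆ and rps7∆, for RNC-mRNA at 72 h in rpl38∆ and at 48 and 72 h in rps7∆, for the mRNA change over time in rpl38∆, rpl9a∆ and rps7∆, for the RNC-mRNA change in rps7∆, and for members higher in RNC-mRNA than in mRNA in wt at each time. With no filter no count changed, and with more than 10 reads in every library, which tests fewer members, all stayed within 1.5 times. Of 477 single called values none reversed, and at most 60 were lost under 1 setting other than a left-out library. With 2 libraries per group, calls near the threshold depend on the shared spread. The cause of the changes below was not tested, except that fitting only the libraries compared leaves few residual degrees of freedom and a spread of their own.

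DESeq2's Wald test gave 2 members for the RNC-mRNA change over time in rps25∆, 2 and 5 for the ratio in rpl9a∆ and rps25∆, 2 for rpl38∆ at 24 h in RNC-mRNA, 1 for rpl9a∆ at 72 h in RNC-mRNA and 1 for wt at 48 h in RNC-mRNA. DESeq2's size factors gave 0 for the ratio in rpl9a∆ and 2 for rpl38∆ at 24 h in RNC-mRNA. TMM from genes outside the list gave 0 for the ratio in rpl9a∆ and 0 for rps25∆ at 24 h in RNC-mRNA.

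With library size alone the median of all genes shifted by -0.84 to 1.25. The change over time then gave 0 in rpl9a∆ RNC-mRNA and 3 in rps25∆ mRNA (1 higher, 2 lower, so the balance reversed), and the ratio 1 in rpl38∆, 17 in rpl9a∆ and 3 in rps7∆. In mRNA it gave 10 for rpl38∆ at 24 h, 3 for rpl9a∆ at 24 h (1 higher, 2 lower, reversed) and 24 for rps25∆ at 48 h (13 higher, 11 lower, reversed). In RNC-mRNA it gave 2 and 19 for rpl38∆ at 24 and 48 h, 3 for rpl9a∆ at 48 h, 6 for rps25∆ at 24 h and 12 for rps25∆ at 48 h (7 higher, 5 lower, reversed).

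With only the libraries compared, the change over time gave 0 in rpl9a∆ RNC-mRNA, 16 in rps25∆ mRNA and 9 in rps25∆ RNC-mRNA, and the ratio gave 11 in rpl38∆, 0 in rpl9a∆, 26 in rps25∆ and 28 in rps7∆. In mRNA it gave 12 for rpl38∆ and 19 for rpl9a∆ at 24 h, 0 for rpl9a∆ at 48 h, 32, 33 and 35 for rps25∆ at 24, 48 and 72 h, 27 for rps7∆ at 24 h and 37 for wt at 48 h. In RNC-mRNA it gave 20 for rpl38∆ at 24 h (4 higher, 16 lower, reversed), 21 and 0 for rpl9a∆ at 24 and 48 h, 18, 32 and 11 for rps25∆ at 24, 48 and 72 h, 27 for rps7∆ at 24 h, and 31 and 14 for wt at 48 and 72 h.

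Between strains, replicate numbers did not pair the samples (deviations from group means correlated over 0.1 in 2 of 12 strain and wt pairs in mRNA and 0 of 12 in RNC-mRNA). The fit with a replicate block gave 5 for the ratio in rpl38∆ and 5 in rps25∆, and left every other count within 1.5 times.

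Leaving out each library in turn gave ranges of 14 to 42 for the RNC-mRNA change over time in rpl38∆, 0 to 41 in rpl9a∆ and 0 to 3 in rps25∆, and 1 to 18 for the mRNA change in rps25∆. The ratio ranged from 1 to 12 in rpl38∆, 0 to 30 in rpl9a∆ (1 lower without rpl9a∆ replicate 2 at 72 h, reversed), 1 to 7 in rps25∆ and 2 to 13 in rps7∆. In mRNA the ranges were 3 to 12 for rpl38∆ at 24 h, 2 to 21 and 3 to 36 for rpl9a∆ at 24 and 48 h (10 without rpl9a∆ replicate 2 at 48 h, reversed), 4 to 31, 14 to 31 and 12 to 32 for rps25∆ at 24, 48 and 72 h, 9 to 25 for rps7∆ at 24 h, and 6 to 35 and 19 to 37 for wt at 48 and 72 h. In RNC-mRNA they were 0 to 4 and 18 to 36 for rpl38∆ at 24 and 48 h, 0 to 1, 0 to 19 and 0 to 43 for rpl9a∆ at 24, 48 and 72 h, 0 to 4, 2 to 18 and 0 to 4 for rps25∆ at 24, 48 and 72 h, 0 to 10 for rps7∆ at 24 h, and 0 to 3 and 0 to 6 for wt at 48 and 72 h.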
